A study of Drosophila melanogaster with 6 samples.

Results

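The cytosolic ribosomal proteins of Drosophila melanogaster were followed as transcripts in larval brains with and without RNAi against Bub3 in neuroblasts. Members were taken by FlyBase symbol: RpL or RpS followed by a number with any suffix, and RpLP0, RpLP1, RpLP2 and sta. The rule found 89 genes among the 14150 rows of the count table. Of these, 38 were assigned by symbol to the small 40S subunit, 48 to the large 60S subunit and 3 to its stalk. The reference genes RpL10Aa, RpL7-like and RpS28-like also match the rule and were not analysed here. By shared name, 69 members stood alone and the other 20 formed 10 pairs of gene copies.

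Polyadenylated RNA was sequenced from brains of female late L3 larvae, 96 h after egg laying at 29 °C, in 6 libraries of 3 brains each. All larvae carried the w allele and worniu-gal4, a driver active in neuroblasts, the stem cells of the fly brain. The ctrl larvae (batches 4, 5 and 6) also carried UAS-gfp-i, an RNAi transgene against a gene that flies lack. The CIN larvae (batches 4, 5 and 6) carried UAS-bub3-i, against Bub3 of the spindle assembly checkpoint. The driver acts in neuroblasts, while the dissected brains also hold neurons and glia. Any effect of the stocks themselves cannot be told apart from that of the knockdown. Replicates came from different days, so each p-value reflects variation between such pools.

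Each ribosome joins a small subunit, which reads the mRNA, to a large subunit, which forms peptide bonds, and the stalk proteins of the large subunit call in the elongation factors. The proteins are made in matched amounts, so loss of a single gene copy often gives the Minute phenotype of slow growth and short bristles in flies. Several proteins are encoded by a pair of genes in the fly, with one copy used in most tissues and the other known best from the germline. Neuroblasts are large, growing cells with high ribosome production.

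The libraries held 24668180 to 26292208 counts, and levels are given in CPM, counts scaled to a common library size. Groups of 3 values follow the order of batches 4, 5 and 6 throughout, and coordinates are those of dm6. Bub3, the targeted gene, measured 149, 123 and 144 CPM in ctrl against 80.2, 96.5 and 91.5 CPM in CIN, lower in every CIN library. Brain markers were present throughout, with 5 neuron markers summing to 2139.7 to 3082 CPM and 3 glia markers to 477 to 1091 CPM. Some libraries stood apart. The 5 fat body markers summed to 334 CPM in ctrl 4 against 11.5 to 61.0 CPM in the others. The 4 ring gland markers with a row had summed levels of only 1.85 CPM (ctrl 4) and 4.36 CPM (CIN 5), while the remaining libraries ranged from 581 to 1956 CPM. Of these markers, Npc1b had at most 4 counts in any library, so the sums rest on dib, sad and spok. In ctrl 5, 7.56% of all counts came from mt:lrRNA, a ribosomal RNA of mitochondria, against 3.56% to 4.81% in the others. CIN 5 held 243 counts of the male transcript lncRNA:roX2 against 0 to 6 in the others, although all larvae are described as female. The other listed male markers were also highest in CIN 5. There lncRNA:roX1 had 965 CPM against 153 to 452 CPM in the others, and msl-2 58.0 CPM against 35.7 to 40.2 CPM. The sex of the larvae was not tested here.

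Ribosomal protein transcripts were a large part of the brain's polyadenylated RNA. Together the 89 genes took 14.002%, 14.4% and 12.4% of all counts in ctrl against 14.1%, 10.8% and 12.3% in CIN. The genotypes were nearly level in batches 4 and 6, while batch 5 held both the highest and the lowest library. The group means were 13.6% ± 1.09 in ctrl and 12.4% ± 1.65 in CIN (SD, n = 3), a difference of -1.17 percentage points that was smaller than the spread within CIN. CIN minus ctrl was 0.13, -3.61 and -0.04 points in batches 4, 5 and 6. Without CIN 5 the difference was -0.37 points, without ctrl 5 -0.76, without CIN 4 -2.02 and without ctrl 6 -1.79. Without both ctrl 4 and CIN 5 it was -0.175 points. The 4 neuroblast markers summed to 455, 324 and 349 CPM in ctrl against 167, 256 and 313 CPM in CIN. Their sum, mostly mira, was lower in every CIN library than in any ctrl library. Its widest gap was in batch 4, where the ribosomal protein share was level. Each single marker overlapped between the groups, and dpn was higher in CIN 6 (9.54 CPM) than in ctrl 6 (8.49 CPM). The part of neuroblasts in the share was not tested. The 5 hemocyte markers summed to 699, 1013 and 489 CPM in ctrl against 1407, 259 and 361 CPM in CIN. The sum, mostly Col4a1 and vkg, was lowest in CIN 5 like the ribosomal protein share. Hml, NimC1 and eater were instead lowest in CIN 6, with Hml at 26.1 CPM in CIN 5 and 4.44 CPM in CIN 6. Any part of hemocytes in the share was not tested. Ring gland markers were near absent both from ctrl 4, with a high share, and from CIN 5, with the lowest. The part of ring gland tissue in the share was not tested either. In whole brains, fewer growing cells and less ribosomal mRNA per cell cannot be told apart.

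The subunits ran in parallel. The 40S genes took 4.54% to 6.29% of the counts, the 60S genes without the stalk 5.83% to 7.53%, and the stalk genes 0.465% to 0.649%, each lowest in CIN 5. The ratio of 40S counts to 60S and stalk counts was 0.728, 0.771 and 0.735 in ctrl against 0.738, 0.721 and 0.728 in CIN. Ctrl 5 was the high value and the other 5 libraries lay close together, with the groups overlapping.

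**Figure D1:**
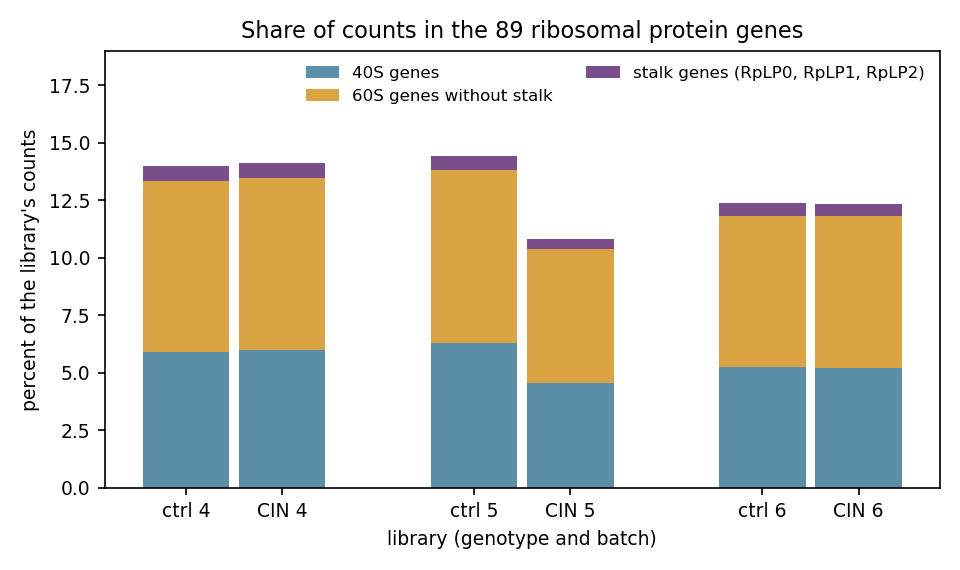
Stacked bars give the percent of each library's counts in the 40S genes, the 60S genes without the stalk and the stalk genes, for the 6 libraries paired by batch. The bars of a batch are of like height in batches 4 and 6, while in batch 5 ctrl reaches 14.4% and CIN 10.8%.

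Levels between genes were compared per kb of annotated exon. Leaving out the less abundant copy of each pair, the other 79 members had mean levels of 639 to 6338 CPM per kb, with a median of 1770.2. The highest was RpL41 (2R:24903416-24903935), which encodes the shortest ribosomal protein, at 6338 CPM per kb with a range over libraries of 4567 to 12039. Next came the stalk gene RpLP2 (2R:16586129-16586732) at 3135 and RpL27A (2L:4457186-4458364), of the 60S subunit, at 2965 CPM per kb, and the ranges of these 2 overlap. The lowest of the 79 were RpL38, RpS9 and RpL5, at 639, 647 and 650.3 CPM per kb. The exon length joins all annotated transcripts of a gene, which lowers the value of genes with long rare transcripts, and reads at exons shared with a neighbour add to it. Of the 89 members, 25 overlap an exon of another counted gene, 7 of them by at least 100 bp, among them RpL22, RpL23A, RpL24, RpL27, RpL30 and RpS9. RpLP1, a stalk partner of RpLP2, had 2301 CPM per kb, and RpLP0, the base on which they sit, 1593.

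**Figure D2:**
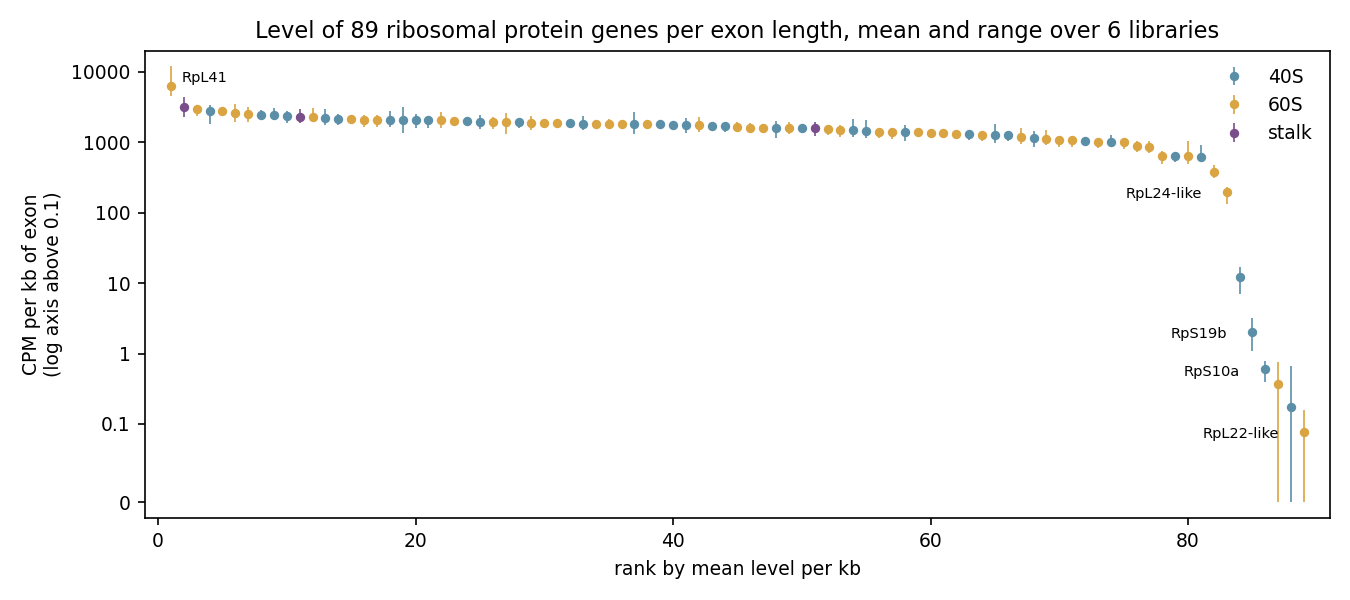
Each point is the mean level of 1 of the 89 genes over the 6 libraries in CPM per kb of exon, ranked from high to low, with a line from the lowest to the highest library. The vertical axis is logarithmic above 0.1 and linear below. A plateau from 6338 down to 639 CPM per kb is followed by 9 of the 10 less abundant copies, which reach down to 0.0901 CPM per kb for RpL22-like.

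The comparison of CIN with ctrl asked whether brains with Bub3 RNAi in neuroblasts differ in ribosomal protein transcripts. No member passed. Of the 89 genes, 85 passed the filter on low counts, and 0 of these were called by edgeR's quasi-likelihood test at an adjusted p under 0.05, against 0.0993% of all 10074 tested genes. By direction, 0 members were called higher and 0 lower, against 0.0496% higher and 0.0496% lower among all. DESeq2 and limma-voom called 0 as well, with a background of 1.07% in DESeq2. At an unadjusted p under 0.05, 0 members were higher and 0 lower by edgeR, against 4.13% and 3.76% of the tested genes. The lowest adjusted p of a member was 0.627, for RpS19b.

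The fold changes were small and mostly of one sign. Negative values were found for 82 of the 85, against 48.7% of all tested genes. With CIN 5 left out this count was 72, and with ctrl 4 left out as well as CIN 5 it was 62. In all 6 libraries the median log2 fold change of the 85 was -0.16 (SD 0.15 over genes), against 0.01 over all tested genes. Other genes with short coding sequences were shifted as well. The tested genes were grouped at 300, 600 and 900 bp of coding sequence. From short to long, genes outside the rule had medians of -0.16, -0.12, -0.07 and 0.04. Members had -0.22, -0.17, -0.13 and -0.09. Among genes outside the rule, 148 of 226, 645 of 1000, 753 of 1214 and 2941 of 6890 were negative. The negative sign of the members came mainly from 1 batch. The median log2 ratio of CIN to ctrl was 0.05, -0.51 and -0.04 in batches 4, 5 and 6, against 0.00, -0.01 and -0.01 over all tested genes. Genes outside the rule had batch 5 medians of -0.41, -0.26, -0.18 and 0.07 in the same length classes. In batch 4, 13 of the 85 were lower in CIN, against 50% of all tested genes, in batch 5 82 against 51%, and in batch 6 69 against 51.3%. The members varied little around their shared median: the SD of their log2 ratios was 0.11, 0.31 and 0.05 in the 3 batches, against 0.73, 0.72 and 0.41 over all tested genes, most of which are less abundant. Without CIN 5 the median was -0.07, without ctrl 5 -0.08 and without CIN 4 -0.29. Without both ctrl 4 and CIN 5 it was -0.06.

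**Figure D3:**
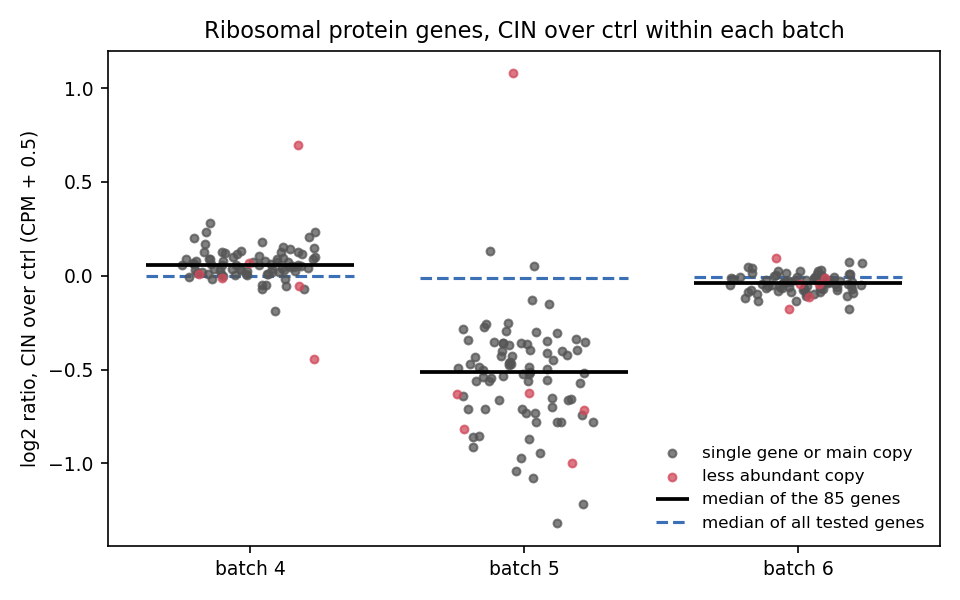
Each point is the log2 ratio of CIN to ctrl (CPM + 0.5) of 1 of the 85 tested genes in 1 batch, grey for single genes and main copies and red for the less abundant copy of a pair. Black lines are the medians of the 85, at 0.05, -0.51 and -0.04, and dashed blue lines those of all tested genes, near 0 in each batch.

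The 36 tested 40S genes had a median log2 fold change of -0.18 and the 46 tested 60S genes -0.14, with 35 and 45 negative. By batch the medians were 0.06, -0.56 and -0.04 for 40S and 0.05, -0.48 and -0.04 for 60S genes. Members lie on every major chromosome arm. The 15 on the X chromosome had a median of -0.21, against -0.14, -0.18, -0.13 and -0.15 for tested members on 2L, 2R, 3L and 3R, and 1 member lies on chromosome 4. All tested genes of these arms had medians of 0.01 for X and 0.00, 0.00, 0.02 and 0.01 for the autosomal arms. Small nucleolar RNA genes are nested in 29 members, whose median was -0.15, against -0.17 for the other tested members.

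Among the 79 abundant members, 74 had their lowest level in CIN 5, 52 their highest in ctrl 5 and 23 their highest in CIN 4. The median SD of log2 CPM over the 6 libraries was 0.21 for them and 0.22 over the 192 tested genes outside the rule with a mean level at or above that of the lowest of the 79.

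Across members of different coding sequence length, the batch 5 gap had an uneven part in ctrl 5 and a more even part in CIN 5. Against ctrl 4 and 6, the members of ctrl 5 were higher by a median of 0.19 on the log2 scale, and against CIN 4 and 6 those of CIN 5 differed by -0.29. In ctrl 5 the excess went with coding length, the length of the protein-coding sequence in the annotation. Its median was 0.48 for the 10 members under 300 bp, 0.20 for the 50 from 300 to under 600 bp, 0.14 for the 22 from 600 to under 900 bp and -0.06 for the 3 of 900 bp or more. In CIN 5 the same classes had medians of -0.27, -0.29, -0.31 and -0.37 and were negative in each. Tested genes that are no members went the same way in ctrl 5, less steeply, with 0.16, 0.11, 0.07 and -0.04, and in CIN 5 had -0.21, -0.10, -0.07 and 0.05. Pearson's r of the ctrl 5 excess with log2 coding length was -0.54 across the 85 members and -0.11 across 9330 other protein-coding genes. By rank the contrast was smaller, with Spearman's rho of -0.41 and -0.19. Both are given as a description of genes that share libraries. Ctrl 5 is also the library with the high share of mt:lrRNA, whose part in this was not tested.

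RpL41 was the extreme of this pattern. It measured 1804, 3852 and 1500.2 CPM in ctrl against 2005, 1545 and 1462 CPM in CIN. Ctrl 5 alone was high, and the other 5 libraries overlap. Its log2 fold change was -0.51 ± 0.36 (SE) (edgeR, adjusted p = 0.732), and without ctrl 5 it was 0.01. RpL38 and RpS12, chosen after their values were seen, had excesses of 0.91 and 0.66 in ctrl 5. RpS12 is the small-subunit protein that reports lost ribosomal genes in Minute cells of the fly. RpS20 (3R:20822181-20823356), of the head of the 40S subunit, measured 1194, 1765 and 1061 CPM in ctrl against 1270.2, 760.2 and 983 CPM in CIN. It was both high in ctrl 5 and low in CIN 5, with a log2 fold change of -0.42 ± 0.26 (SE) (edgeR, adjusted p = 0.715).

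Some members went against the rest in ctrl 5. RpLP0 (3L:22075867-22077487), the base of the stalk, measured 2538, 1646 and 2069 CPM in ctrl against 2600.2, 1705 and 2134 CPM in CIN. RpL7 (2L:10201004-10202321), of the 60S subunit, measured 2606, 1804 and 2269.7 CPM in ctrl against 2651, 1976 and 2258 CPM in CIN. Both were lowest in the ctrl group in ctrl 5, the library where most members were highest. Their log2 fold changes were 0.04 ± 0.22 (SE) and 0.04 ± 0.18 (SE) (edgeR, adjusted p = 0.970 and 0.966), and both were negative without ctrl 5. RpLP0, RpL7 and RpS19b were the 3 tested members with a positive value.

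**Figure D4:**
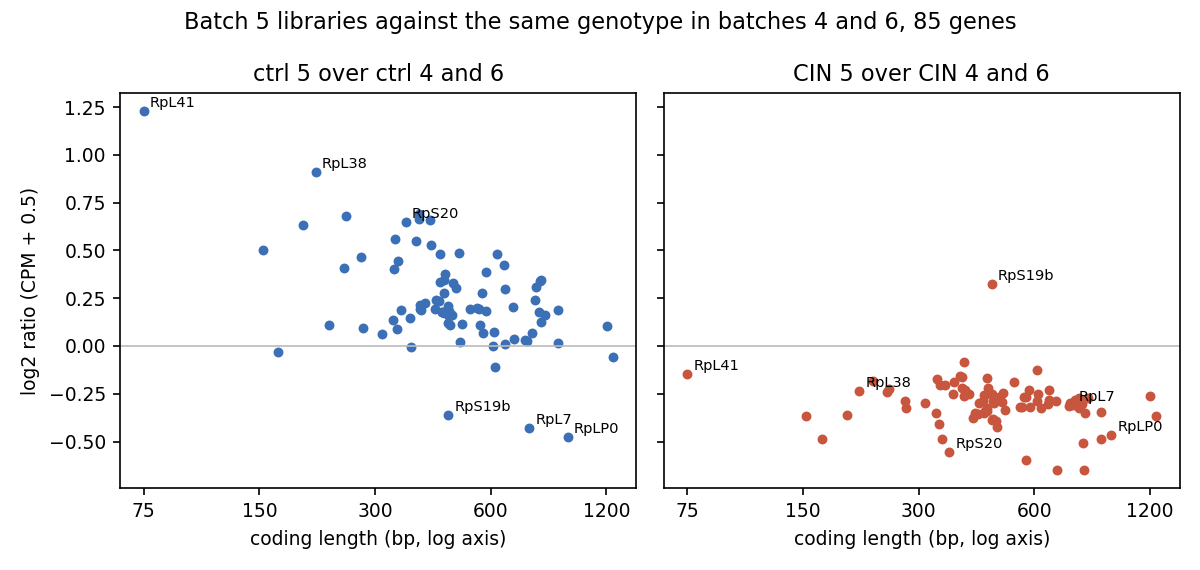
Points are the 85 tested genes by coding length in bp on a log axis. The left panel gives the log2 ratio of ctrl 5 to the mean of ctrl 4 and 6 and the right panel that of CIN 5 to the mean of CIN 4 and 6 (CPM + 0.5). In ctrl 5 the ratio runs from 1.23 for RpL41 to -0.48 for RpLP0, and in CIN 5 every gene but RpS19b lies under 0.

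Among abundant members, RpL8 had the lowest unadjusted p (0.0914). RpL8 (3L:2587456-2588883), a protein near the site of peptide bond formation in the 60S subunit, measured 2902, 2793 and 2442 CPM in ctrl against 2551, 1926 and 2155 CPM in CIN. The groups overlap by 1 library, since CIN 4 lay above ctrl 6. Mean levels were 2712 ± 241 CPM for ctrl and 2211 ± 316 for CIN (SD, n = 3), with log2 ratios of -0.19, -0.54 and -0.18 in batches 4, 5 and 6. Its log2 fold change of -0.29 ± 0.15 (SE) did not pass (edgeR, adjusted p = 0.673; DESeq2, adjusted p = 0.614). RpLP1 (2L:419952-420864), of the stalk, measured 1893, 2317 and 1617 CPM in ctrl against 1824, 1463 and 1488 CPM in CIN. Ctrl 5 was the high library and the groups overlap (log2 fold change -0.29 ± 0.18 (SE); edgeR, adjusted p = 0.709). RpLP2, its partner, measured 2017, 2652 and 1604 CPM in ctrl against 2185, 1377 and 1526 CPM in CIN. Here CIN 4 lay above ctrl 4 and ctrl 6 (log2 fold change -0.30 ± 0.25 (SE); edgeR, adjusted p = 0.769). RpL27A, next to RpLP2 in level per kb, measured 2098, 2122 and 1681 CPM in ctrl against 2179.5, 1508 and 1671 CPM in CIN. CIN 4 was its highest library, and its log2 fold change was -0.14 ± 0.18 (SE) (edgeR, adjusted p = 0.844).

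Members with a known role beside the ribosome were taken by that role. RpS6, the 40S protein that S6 kinase phosphorylates, measured 2326, 2248 and 2101 CPM in ctrl against 2319, 1781 and 2064 CPM in CIN. RpL40 measured 1489.8, 2024.5 and 1281 CPM in ctrl against 1571, 1282 and 1302 CPM in CIN and RpS27A 1508, 1604 and 1377 CPM in ctrl against 1646, 1118 and 1293 CPM in CIN, each made as a fusion with ubiquitin. In sta, the fly counterpart of the laminin receptor protein of the 40S subunit, the values were 4351, 4209 and 3424 CPM in ctrl against 4546, 2448 and 3237 CPM in CIN. RpS6, RpS27A and sta were lowest in CIN 5, RpL40 was lowest in ctrl 6 and CIN 5 at nearly equal levels, and the groups overlap in each. In this order the log2 fold changes were -0.11 ± 0.14 (SE), -0.21 ± 0.20 (SE), -0.15 ± 0.17 (SE) and -0.23 ± 0.24 (SE) (edgeR, adjusted p = 0.834, 0.795, 0.832 and 0.809).

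Few of the 85 kept 1 direction over the batches. Values were lower in CIN in all 3 batches for 11 of them, against 18.5% of all tested genes, and higher in all 3 for 2, RpLP0 and RpS19b, against 17.5%. All CIN libraries lay above all ctrl libraries for 1 member, RpS19b, against 7.1% of all tested genes, and below for 0, against 8.18%.

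Of the 10 pairs of gene copies, 9 are described, and they fell into 3 kinds. In RpS14, RpS15A, RpL34 and RpL24, paired by name, both genes stood above 100 CPM in every library. In RpS19, the second copy was present at a low level. In RpL22, RpL37, RpS10 and RpS28, the second copy was close to no counts and did not pass the filter. Together the less abundant copies held 1.56% to 1.72% of the counts of the 89 genes. How reads that match both copies were counted is not stated, so the split of near-identical pairs is uncertain.

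RpS14a and RpS14b are neighbours on the X chromosome (X:7933742-7934677 and X:7934898-7935792) that encode the same 40S protein. RpS14a measured 1845, 2161 and 1564 CPM in ctrl against 1869, 1375 and 1582 CPM in CIN. RpS14b measured 1356, 1499 and 1130.0 CPM in ctrl against 1345, 969 and 1122 CPM in CIN. Both were highest in ctrl 5 and lowest in CIN 5, and the groups overlap. RpS14b held 42.4%, 40.9% and 41.9% in ctrl against 41.8%, 41.3% and 41.5% in CIN, as a share of the pair's counts, while per kb it stood slightly above its neighbour, at 2072 against 1976 CPM per kb. Their log2 fold changes were -0.21 ± 0.18 (SE) and -0.21 ± 0.17 (SE) (edgeR, adjusted p = 0.781 and 0.769).

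RpS15Aa (X:13335637-13337705) and RpS15Ab (2R:10821676-10822399), of the 40S subunit, lie on different chromosomes. RpS15Aa measured 1301, 1979.8 and 1156 CPM in ctrl against 1421, 1093 and 1139 CPM in CIN. RpS15Ab measured 445, 664 and 395 CPM in ctrl against 467, 377 and 383 CPM in CIN. Ctrl 5 stood well above the rest in both genes, and the other libraries overlap. The share of RpS15Ab in the pair was nearly constant, at 24.7% to 25.7%. Per kb, RpS15Aa stood at 1428 and RpS15Ab at 629 CPM. Log2 fold changes were -0.28 ± 0.23 (SE) and -0.29 ± 0.22 (SE) (edgeR, adjusted p = 0.769 and 0.749).

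RpL34b (3R:9400237-9401226) and RpL34a (3R:26058420-26059267) encode a 60S protein. RpL34b measured 1034, 1054 and 919 CPM in ctrl against 1039.5, 758 and 878 CPM in CIN. RpL34a measured 248, 295 and 231 CPM in ctrl against 249, 192 and 213 CPM in CIN. CIN 5 was lowest in both, and RpL34a was highest in ctrl 5. RpL34a held 19.3%, 21.9% and 20.1% in ctrl against 19.3%, 20.2% and 19.5% in CIN of the pair's counts, and per kb 383 against 1022 CPM per kb. Their log2 fold changes were -0.17 ± 0.15 (SE) and -0.24 ± 0.15 (SE) (edgeR, adjusted p = 0.788 and 0.715).

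RpL24-like (3R:11430740-11431582) is related to the 60S protein RpL24 (2L:13393687-13395131), and its counterpart in yeast and mammals works in the assembly of the 60S subunit. RpL24 measured 1554, 1541 and 1297 CPM in ctrl against 1564, 1071 and 1255 CPM in CIN. RpL24-like measured 180.2, 169 and 143 CPM in ctrl against 174, 103 and 139 CPM in CIN. In both genes CIN 5 was the low library and the groups overlap. RpL24-like held 10.4%, 9.86% and 9.96% in ctrl against 9.99%, 8.74% and 9.97% in CIN of the pair's counts, lowest in CIN 5, and 196 against 1091 CPM per kb. Their log2 fold changes were -0.18 ± 0.17 (SE) and -0.25 ± 0.20 (SE) (edgeR, adjusted p = 0.800 and 0.772).

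**Figure D5:**
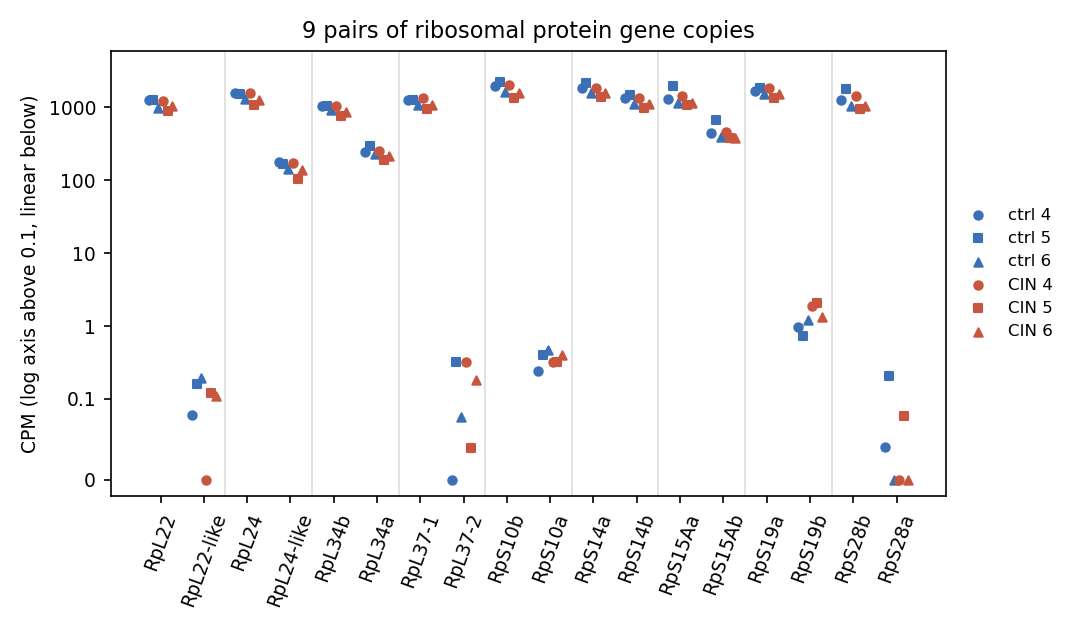
CPM of the 18 genes of the 9 pairs, with the more abundant copy left of the other, in the 6 libraries (blue ctrl, red CIN, with 1 marker shape for each batch). The axis is logarithmic above 0.1 and linear below. The second copies of RpS14, RpS15A, RpL34 and RpL24 stand above 100 CPM, RpS19b near 1 and the other 4 under 0.5 CPM.

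RpS19b (3R:23932729-23933530), a copy of the 40S gene RpS19a (X:16637894-16639249) known best from the germline, was the member with the largest fold difference in either direction and the only one of the 85 whose groups did not overlap. It had 24, 18 and 31 counts in ctrl against 47, 53 and 36 in CIN. These correspond to 0.965, 0.730 and 1.21 CPM in ctrl against 1.87, 2.10 and 1.32 CPM in CIN. All CIN values lay above all ctrl values, by a small margin in batch 6. Mean levels were 0.968 ± 0.239 CPM for ctrl and 1.76 ± 0.400 for CIN (SD, n = 3). Its log2 fold change of 0.86 ± 0.37 (SE) did not pass (edgeR, adjusted p = 0.627; DESeq2, adjusted p = 0.660). RpS19a went the other way in batch 5, with 1679, 1827 and 1544 CPM in ctrl against 1822, 1359.8 and 1517 CPM in CIN (log2 fold change -0.10 ± 0.15 (SE); edgeR, adjusted p = 0.862). RpS19b was 0.0400% to 0.154% of the pair's counts. Of 10 germline and testis markers, 7 had a row and 3 of these, aly, sa and dj, had at most 18 counts over the 6 libraries. The list summed to 9.65, 12.4 and 12.9 CPM in ctrl against 7.85, 6.49 and 7.23 CPM in CIN, lower in each CIN library. The widest gap was in bam, at 3.94, 7.42 and 5.57 CPM in ctrl against 1.87, 2.49 and 2.17 CPM in CIN. Levels of vas were also lower in CIN without overlap, while can overlapped between the groups. The gene fzo went the other way, at 1.09, 1.30 and 1.13 CPM in ctrl against 2.71, 1.31 and 1.87 CPM in CIN. All CIN values of fzo lay above all its ctrl values. The part of such cells in these values was not tested.

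The remaining second copies were at the edge of detection, and no difference between genotypes was detectable at this depth. RpS10a (3R:27652760-27653363) had 6, 10 and 12 counts in ctrl against 8, 8 and 11 in CIN. Its 40S partner RpS10b (X:19598031-19599806) measured 1948, 2236 and 1624 CPM in ctrl against 2059, 1345 and 1584 CPM in CIN. The second copy was present in each library at a few counts, with no order between the groups, and the main copy was highest in ctrl 5 and lowest in CIN 5. RpL37-2 (2R:23100057-23100478) had 0, 8 and 2 counts in ctrl against 8, 1 and 5 in CIN. Its 60S partner RpL37-1 (X:15137870-15139367) measured 1277, 1258 and 1091 CPM in ctrl against 1333, 957 and 1074 CPM in CIN. RpL37-2 was at 0 in ctrl 4 and highest in ctrl 5 and CIN 4, with both groups spread over the same range. RpL22-like (2R:23246610-23247893), best known from the testis, had 2, 4 and 5 counts in ctrl against 0, 3 and 3 in CIN. Its 60S partner RpL22 (X:762560-765130) measured 1268, 1276 and 987 CPM in ctrl against 1225, 888 and 1040.0 CPM in CIN. RpL22 was low in CIN 5 and its groups overlap. RpS28a (3R:30022345-30022648) had 1, 5 and 0 counts in ctrl against 0, 2 and 0 in CIN. Its 40S partner RpS28b (X:9554623-9555661) measured 1259, 1778 and 1041 CPM in ctrl against 1414, 946 and 1048 CPM in CIN. RpS28a was at 0 in 3 libraries, and the groups of all 4 main copies overlap. Their log2 fold changes were -0.22 ± 0.20 (SE), -0.11 ± 0.16 (SE), -0.16 ± 0.17 (SE) and -0.26 ± 0.24 (SE) in this order (edgeR, adjusted p = 0.788, 0.865, 0.812 and 0.792). The highest share that any of these second copies took of its pair was 0.0288%, for RpS10a in ctrl 6. A count of 0, as for RpL22-like in CIN 4, allows a share of up to 0.00976% of the pair (3 counts), for counting error only.

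Other genes of translation were read from a list of 51, of which 50 were tested: initiation, elongation and termination factors, ribosome-associated proteins and regulators of ribosomal protein synthesis. Of these 50, 0 were called higher or lower by edgeR's adjusted p, by DESeq2 or at an unadjusted p under 0.05 by edgeR. Their median log2 fold change was -0.06, with 38 negative, and batch medians of 0.00, -0.18 and -0.01. The 9 elongation and termination factors had batch medians of 0.06, -0.28 and -0.05 and the 27 initiation factors -0.02, -0.17 and 0.01. All CIN libraries lay under all ctrl libraries for 6 of the 50 (eIF2beta, eIF2gamma, eIF4B, eEF1delta, S6k and M1BP), against 8.18% of all tested genes, and above them for 0, against 7.1%. Those with the lowest p were eEF1delta, M1BP and raptor. The elongation factor subunit eEF1delta measured 298, 403 and 314 CPM in ctrl against 270.3, 252 and 284 CPM in CIN, without overlap (log2 fold change -0.33 ± 0.15 (SE); edgeR, adjusted p = 0.646). M1BP, a promoter-binding factor of ribosomal protein genes, measured 82.3, 85.2 and 83.2 CPM in ctrl against 63.0, 72.6 and 77.1 CPM in CIN, also without overlap (log2 fold change -0.24 ± 0.11 (SE); edgeR, adjusted p = 0.666). The TOR partner raptor measured 44.1, 31.6 and 33.5 CPM in ctrl against 41.6, 47.0 and 42.7 CPM in CIN, with overlapping groups (log2 fold change 0.27 ± 0.15 (SE); edgeR, adjusted p = 0.703). Xrp1, the transcription factor that responds to a missing ribosomal gene copy in flies, measured 369, 337 and 309 CPM in ctrl against 438, 359.7 and 325 CPM in CIN, and its partner Irbp18 10.3, 12.9 and 8.80 CPM in ctrl against 11.04, 12.9 and 11.1 CPM in CIN. Both had overlapping groups (log2 fold changes 0.15 ± 0.15 (SE) and 0.14 ± 0.20 (SE); edgeR, adjusted p = 0.809 and 0.867).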

How the data were processed

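The authors deposited raw read counts for each gene. They used Trim Galore, STAR 2.7.10a, featureCounts and the build dm6 per the submitters' processing notes, without settings. No source used here states the strand setting, the handling of multi-mapping reads or the gene annotation of the counting, so reads of overlapping genes and of near-identical copies cannot be told apart. Symbols were matched by FlyBase identifier (14074 of 14150), and coordinates and lengths come from Ensembl release 115 on the same assembly, counted from 1. The deposited counts were scaled by TMM after filterByExpr (10074 genes kept) and tested over all kept genes with edgeR 4.0.16 (quasi-likelihood F test on genotype, two-sided, Benjamini-Hochberg adjustment over all kept genes, threshold 0.05; R 4.3.3). The SE is the log2 fold change divided by the square root of F. Within-batch log2 ratios use CPM + 0.5. Sums over members were given no p, and with 3 libraries a group an exact permutation test cannot go under 0.1. The procedure was tested on simulated data. Libraries had near-equal depth, and counting error matters only for the copies under a few CPM.

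The members, lists and tests were chosen with earlier results of these data known. Detailed values are given for the paired copies (1 pair is not reported here), the 3 highest members per kb, and the 5 lowest p in each direction (3 positive members exist). The batch numbers pair the libraries per the labels, as the replicates came from different days. As a check, ctrl and CIN libraries of 1 batch, each centred on its genotype's mean, correlated across genes at 0.0382, -0.0623 and 0.175 in batches 4, 5 and 6. Pairs from different batches ran from -0.201 (ctrl 6 with CIN 4) to 0.103 (ctrl 5 with CIN 4). Libraries of 1 batch were thus not clearly more alike than others. Other settings were RLE factors, no TMM, no filter, 1 CPM in 3 libraries, DESeq2 1.42.0, limma-voom 3.58.1, batch as a block, and libraries left out. Sequences were not used here.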

Additional observations from a re-analysis of the deposited data

How the results depend on the processing

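No member and no gene of the translation list was called at an adjusted p under 0.05 in the main test or in any of the 14 other settings, and the lowest adjusted p of a member in them was 0.493, for RpL8 without CIN 4 (its highest was 0.858). At an unadjusted p under 0.05, the filter of 1 CPM in 3 libraries gave 1 member higher, RpS19b, against 0 in the main test, and leaving out single libraries gave 0 higher each time and 0 to 7 lower, the 7 without CIN 4 (among them RpL8, RpS20, RpS15, RpL36, RpL24-like and sta). The median log2 fold change of members stayed negative, from -0.29 to -0.07 with single libraries left out, -0.12 without TMM, and -0.16 with batch as a replicate block, which changed no member's call. Over all tested genes, 10 were called in the main test, 0 with batch as a block, 107 by DESeq2, 15 with the filter of 1 CPM, 1 to 3 with single libraries left out, and 7 without both ctrl 4 and CIN 5. The difference in summed share ran from -2.02 to -0.37 percentage points with 1 library left out, was -0.175 without both ctrl 4 and CIN 5, and was -1.56 against library totals without mitochondrially encoded genes. Without both ctrl 4 and CIN 5, the difference in the share of the pair was 0.0742 percentage points for RpL24-like, against -0.499. With single libraries left out it was -0.712 to -0.0849. For RpS14b the difference was 0.223 without both and 0.110 without ctrl 4, against -0.194. For RpS15Ab it was 0.0614 without CIN 4, against -0.166. The differences of RpL37-2, RpS10a and RpS28a, which rest on a few counts, also changed sign in some settings. The number of the 85 with a negative value went from 82 to 72 without CIN 5 and to 62 without both ctrl 4 and CIN 5. Among the members described in detail by the naming rule, the uncalled log2 fold changes that turned sign with libraries left out were those of RpL27A (-0.309 to 0.0140) and RpL37-1 (-0.253 to 0.0309), both positive without both ctrl 4 and CIN 5, RpL41 (-0.759 to 0.0141), positive without ctrl 5, and RpL7 (-0.0884 to 0.266) and RpLP0 (-0.120 to 0.347), negative without CIN 4 and without ctrl 5. The cause was not tested. RpS19b stayed between 0.69 and 1.05 in all settings. With 3 libraries a group, shifts of the size seen in most members lie within the spread between libraries.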

Other observations

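RpLP0-like, a relative of the stalk gene RpLP0 that the symbol rule leaves out, was picked after its values were seen. It measured 63.6, 80.8 and 67.0 CPM in ctrl against 54.0, 42.1 and 60.6 CPM in CIN. Every CIN library lay under every ctrl library, as in 8.18% of all tested genes, with a log2 fold change of -0.43 ± 0.17 (SE) (edgeR, unadjusted p = 0.0378, adjusted p = 0.603), which did not pass. Thor, the fly 4E-BP that holds back translation when TOR is low, varied most of the translation list, at 9.89, 96.4 and 68.5 CPM in ctrl against 301, 4.55 and 44.2 CPM in CIN. It was low in ctrl 4 and CIN 5, the libraries with the least ring gland marker signal, and highest in CIN 4, with the most. Any part of ring gland tissue in the Thor level was not tested.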
